A study of Homo sapiens with 2 samples.

Results

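Among the genes listed for A549 lung adenocarcinoma cells after NAT10 knockout, 7 protein-coding transcripts had reads in the control library and none in the knockout library: TCEAL8, MYOM3, NTS, ANKRD30A, UNC5D, TRPS1 and CAVIN3. They were chosen by these same values, a knockout level of 0 and clear expression in the control, so their difference between the libraries is given as a description and carries no test. They are 7 of the 1415 genes in the table and 7 of the 82 protein-coding genes in it with 0 reads in the knockout. A549 is an established human cell line of lung adenocarcinoma. RNA was sequenced from wild-type control A549 cells, with no treatment named, and from cells labelled NAT10 ko1. The knockout cells are a line selected with puromycin and grown from a single cell after CRISPR/Cas9 cutting with a pair of guides in NAT10. Each group had 1 library. NAT10 knockout and the other properties of that 1 clone therefore cannot be told apart here, and no value has a replicate check.

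NAT10 is the enzyme that writes N4-acetylcytidine (ac4C) on RNA, a mark described as stabilising some messenger RNAs. The 7 transcripts do not belong to 1 pathway. TRPS1 encodes an atypical GATA-type zinc finger protein that represses transcription, and TCEAL8 encodes a small X-linked protein of the family related to transcription elongation factor A. NTS encodes neurotensin, a secreted peptide of gut and brain, and UNC5D encodes a receptor of the axon guidance family that binds netrins and FLRT proteins. CAVIN3 encodes a coat protein of caveolae, the small pits of the plasma membrane. MYOM3 encodes a myomesin of the M-band in striated muscle, and ANKRD30A encodes an ankyrin repeat protein known as a differentiation antigen of breast epithelium.

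The table gave RPKM, reads scaled to gene length in kilobases and to library size. RPKM and gene length were turned back into reads, with an effective size of 6077933 in the control library and of 5474964 in the other, a ratio of 1.11. The NAT10 transcript was not analysed here, and the knockout label could not be checked on it. Of the 11 epithelial and A549 markers looked for, CDH1 was in the table, at 8.82 RPKM in the control and 3.76 RPKM in the knockout. Of the 27 markers of other lineages, COL1A1 (0.503 RPKM in the control and 0.223 RPKM in the knockout) and DES (0 and 0.741 RPKM) were in it. The table was limited by the study to genes past its thresholds, so a gene outside it may be unchanged, undetected or not analysed here.

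TCEAL8 had the highest control level of the 7, at 9.29 RPKM from 69 reads, and 0 reads in the knockout. NTS followed at 6.14 RPKM from 58 reads, with 0 in the knockout. CAVIN3 stood at 4.13 RPKM from 42 reads, with 0 in the knockout. These short transcripts lay between percentiles 90.2 and 95.4 of control RPKM among the 798 listed protein-coding genes. ANKRD30A had 1.61 RPKM from 49 control reads and 0 in the knockout. MYOM3 had 1.19 RPKM from 67 control reads and 0 in the knockout. For these genes the control level was nearer to the middle of the listed protein-coding genes, at percentiles 74.8 and 67.8. UNC5D had 0.669 RPKM from 44 control reads and 0 in the knockout. TRPS1 had 0.639 RPKM from 43 control reads and 0 in the knockout. UNC5D and TRPS1 were thus close to the median control level of the listed protein-coding genes, which was 0.638 RPKM. The control RPKM ranged 14.5-fold over the 7 transcripts and the control reads 1.64-fold, from 42 to 69.

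The order of the control levels was TCEAL8, NTS, CAVIN3, ANKRD30A, MYOM3, UNC5D and TRPS1. By exact 95% Poisson intervals of the reads, which cover counting error only, TCEAL8 (7.23 to 11.8 RPKM) overlapped NTS (4.66 to 7.93 RPKM), and NTS overlapped CAVIN3 (2.98 to 5.59 RPKM). CAVIN3 lay above ANKRD30A (1.19 to 2.13 RPKM), which overlapped MYOM3 (0.923 to 1.51 RPKM). MYOM3 lay above UNC5D (0.486 to 0.899 RPKM), and UNC5D and TRPS1 (0.462 to 0.861 RPKM) could not be ordered.

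**Figure D1:**
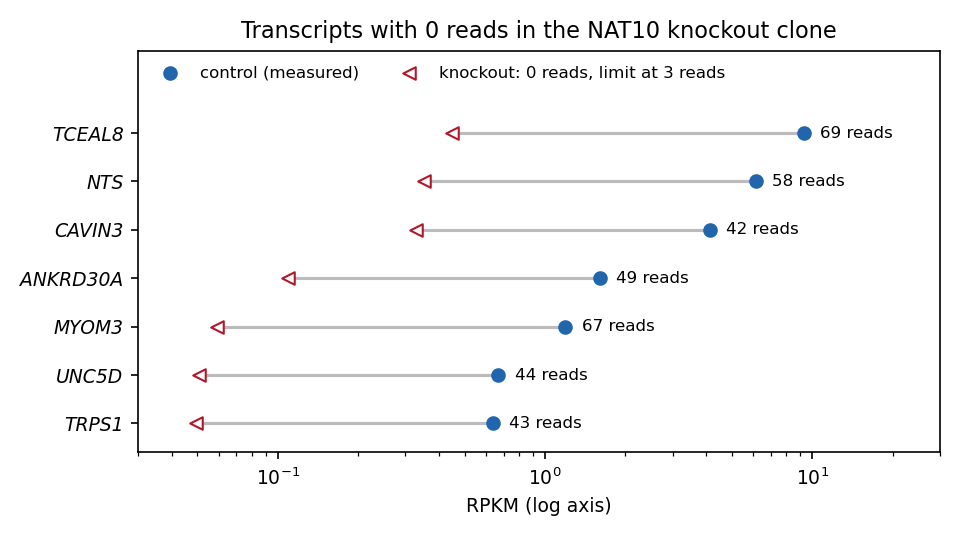
RPKM of the 7 transcripts on a log axis, with filled circles for the 1 control library and open triangles for the level that 3 reads would give in the knockout library, where 0 were found. The limits run from 0.0495 RPKM for TRPS1 to 0.448 RPKM for TCEAL8 and lie from 12.6-fold (CAVIN3) to 20.7-fold (TCEAL8) below the measured control level.

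How complete the loss was is bounded by depth. A count of 0 allows up to 3 reads. With that floor, and with the control count taken without error, TCEAL8 was at least 20.7-fold lower in the knockout, MYOM3 at least 20.1-fold and NTS at least 17.4-fold. ANKRD30A was at least 14.7-fold lower, UNC5D at least 13.2-fold, TRPS1 at least 12.9-fold and CAVIN3 at least 12.6-fold. Had each transcript kept its control level, the knockout library would have held 62.2 reads of TCEAL8 and 37.8 reads of CAVIN3. The upper limit of the exact 95% Clopper-Pearson interval left a knockout level of at most 6.10% of the control for TCEAL8, 6.28% for MYOM3 and 7.29% for NTS. The limit was 8.68% for ANKRD30A, 9.71% for UNC5D, 9.94% for TRPS1 and 10.2% for CAVIN3. This interval counts the error of both libraries, and at its limit the folds were smaller, from 16.4 for TCEAL8 to 9.81 for CAVIN3. These limits cover counting error only, and a residual level below them was not detectable at this depth. In bulk RNA, fewer cells with the transcript and less transcript per cell cannot be told apart.

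On the scale of log2(RPKM + 1), the knockout minus control difference was -3.36 for TCEAL8, -2.84 for NTS, -2.36 for CAVIN3, -1.38 for ANKRD30A and -1.13 for MYOM3. It was -0.74 for UNC5D and -0.71 for TRPS1. The median of the 7 was -1.38, beside -0.32 over all listed genes and -0.59 over the lower protein-coding genes. With 0 in the knockout this difference is set by the control RPKM and the pseudocount alone, which is why UNC5D and TRPS1, with long exons and low RPKM, look smallest on it although 44 and 43 reads were lost.

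A level of 0 was not rare in the table. In the knockout, 12.9% of all listed genes and 10.3% of the listed protein-coding genes had 0 reads, and in the control 4.01% of the listed protein-coding genes had 0. More listed genes were lower than higher, so shares within each direction are closer. Of the lower protein-coding genes 16.7% were at 0 in the knockout, and of the higher ones 10.4% were at 0 in the control. Most of the genes at 0 in the knockout had few reads to lose. Of the other 75 protein-coding genes at 0 in the knockout, 60 had fewer than 10 control reads and 22 had 5 reads, the lowest number found. The rule for the 7 transcripts used this contrast, so nothing is read from their count beside these percentages.

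The 7 were chosen for clear control expression, with no read minimum named. Of the 7, CAVIN3 had the fewest control reads, at 42. Next below it among protein-coding genes at 0 in the knockout stood UGT1A9, a glucuronosyltransferase gene, with 35 control reads. TOX3, a gene for an HMG-box protein, followed with 26. UGT1A9 shares exons with the other genes of its locus, so its reads are uncertain. By level in place of reads, the genes at 0 in the knockout on either side of TRPS1 were ALKAL1 at 0.676 RPKM, from 5 control reads, and SLCO1B1 at 0.591 RPKM, from 8. HIST1H1B, a linker histone gene with 613 control reads and 0 knockout reads, met the same description and is not one of the 7.

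The 7 can be set beside genes with the same number of control reads. Between 42 and 69 control reads, 64 protein-coding genes were lower in the knockout, and the 7 were those at 0. The other 57 had between 3 and 29 knockout reads, with a median of 18. SOX2, a transcription factor of stem and progenitor cells, came nearest in this range with 55 control and 3 knockout reads, and HAS2, a hyaluronan synthase, had 53 and 4. The range was set by the 7 themselves, and just below it DLC1 had 41 control and 1 knockout reads. Of all 167 lower protein-coding genes with at least 42 control reads, 8 had 0 knockout reads, 3 kept under 5% of the control level, 27 kept from 5% to under 25%, and 129 kept 25% or more. The median gene of the 167 kept 37.8%. No listed gene had a log2 ratio of RPKM smaller than 0.99 in size, because the study's thresholds removed such genes. The shares kept, and the knockout reads of the other 57, therefore have a ceiling and do not describe all expressed genes. By the ratio of knockout to control RPKM over these 2 libraries, and among genes with at least 42 control reads, the genes most like the 7 were HIST1H1B at 0%, CEACAM6 at 0.594%, PNMA8A at 2.61%, CPS1 at 2.96% and SOX2 at 6.06%. CEACAM6 had 374 control and 2 knockout reads, and PNMA8A had 85 and 2. CPS1 was at 4.73 RPKM in the control and 0.140 RPKM in the knockout, and its reads did not come out whole.

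**Figure D2:**
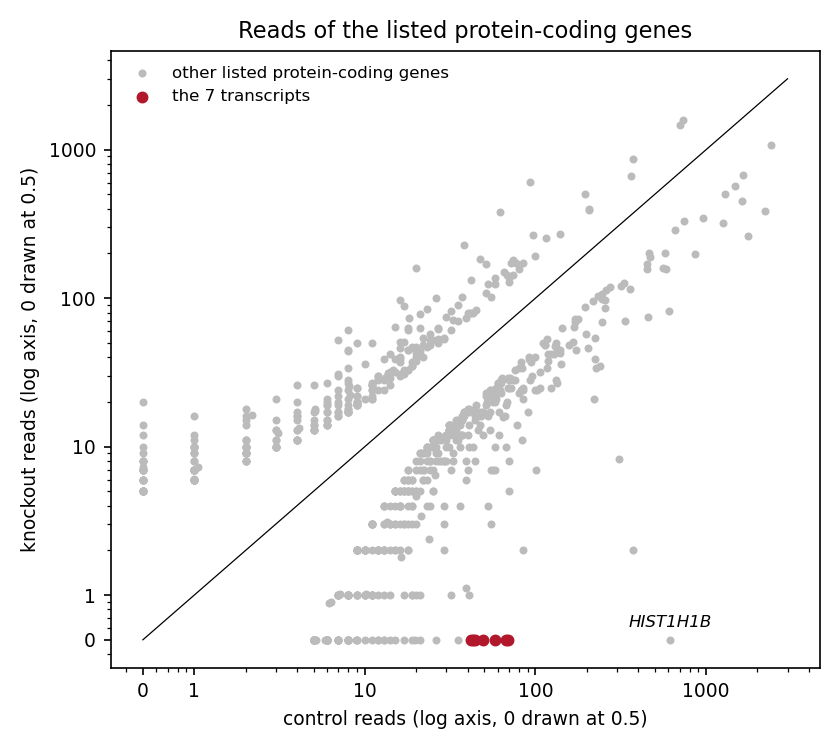
Control reads against knockout reads of the listed protein-coding genes, on log axes with 0 drawn at 0.5 and a line of equal reads. Each point is 1 gene in the 2 libraries. The 7 transcripts, at 42 to 69 control reads, lie on the lower edge at 0 knockout reads, where most other genes have fewer than 10 control reads and HIST1H1B has 613. The band without points around the line is where the study's thresholds removed genes.

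Next, the positions of the 7 genes were examined, which the choice did not use. Coordinates are those of GENCODE release 29 on GRCh38, and all 7 genes are annotated as protein-coding. They lie on 6 chromosomes. TCEAL8 (ENSG00000180964) spans 103252995 to 103255203 on the minus strand of chromosome X. MYOM3 (ENSG00000142661) spans 24056035 to 24112175 on the minus strand of chromosome 1. NTS (ENSG00000133636) spans 85874295 to 85882992 on the plus strand of chromosome 12. ANKRD30A (ENSG00000148513) spans 37125788 to 37384111 on the plus strand of chromosome 10. CAVIN3 (ENSG00000170955) spans 6318946 to 6320647 on the minus strand of chromosome 11. UNC5D (ENSG00000156687) spans 35235457 to 35796550 on the plus strand of chromosome 8. TRPS1 (ENSG00000104447) spans 115408496 to 115809673 on the minus strand of that chromosome, with its start 80.6 Mb from that of UNC5D. The gene bodies differ widely, from 1.7 kb for CAVIN3 and 2.2 kb for TCEAL8 to 401.2 kb for TRPS1 and 561.1 kb for UNC5D.

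Within 1 Mb of the 7 start sites the annotation holds 314 other genes, of which 15 were in the table. Of these 15, the knockout was lower for 8 and higher for 7, where 57.0% of all listed genes were lower, and 5 of the 15 had 0 knockout reads, where 12.9% of all listed genes did. These 5 are not independent, since 4 of them lie inside the gene body of ANKRD30A. The neighbourhoods differed from one another.

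Around ANKRD30A the listed genes were lower as well, all 5 of those within 1 Mb of its start. The 4 at 0 in the knockout lie inside its gene body: LINC00993 with 12 control reads, VN1R53P with 8, AL157387.1 with 5 and a Y_RNA gene (ENSG00000252621) with 5. LINC00993, VN1R53P and AL157387.1 lie on the strand of ANKRD30A and the Y_RNA gene on the opposite strand. None of the 4 shares an exonic base with ANKRD30A. Whether their reads came from transcripts of their own or from introns of ANKRD30A was not tested, and Y_RNA genes and pseudogenes have near-identical copies, so these values are uncertain. The fifth, the pseudogene NAMPTP1, lies 601.6 kb upstream and had 7 control and 1 knockout reads. By itself each is small, and the intervals of AL157387.1, the Y_RNA gene and NAMPTP1 include no change.

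CAVIN3 also had lower neighbours. C11orf42, with its start 115.1 kb downstream, had 7 control reads and 0 knockout reads, and SYT9, a synaptotagmin gene with its start 918.1 kb upstream, had 18 and 3. The other 66 protein-coding genes annotated within 1 Mb of CAVIN3 were not in the table.

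The few listed neighbours of TCEAL8 went the other way, while 31 protein-coding genes annotated within 1 Mb of its start were not in the table. TCEAL8 lies in a cluster of small X-linked genes, and 10 of the 13 TCEAL and BEX relatives looked for start within 1 Mb of it. BEX2, the only one of them in the table, starts 55.8 kb from TCEAL8 and had 2 control reads and 8 knockout reads, a difference within counting error. RAB40A had 5 and 13 reads, SLC25A53 had 8 and 18, and the noncoding Z68871.1 had 15 and 36. All 4 listed neighbours of TCEAL8 thus had more knockout than control reads, and the 95% Clopper-Pearson interval of the log2 ratio left out 0 for Z68871.1 (0.51 to 2.39) and SLC25A53 (0.05 to 2.73).

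Around MYOM3 the directions were mixed. GRHL3, an epithelial transcription factor gene 207.1 kb away, had 27 control and 12 knockout reads, a difference within counting error (interval -2.13 to 0.01). NCMAP, a gene for a myelin-associated protein, had 0 and 12, and the noncoding AL109936.8 had 1 and 8. NTS had 1 listed neighbour, the amino acid transporter gene SLC6A15, 960.7 kb away and higher at 30 control and 75 knockout reads. UNC5D and TRPS1 had no listed neighbour within 1 Mb, where the annotation holds 0 and 2 other protein-coding genes.

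**Figure D3:**
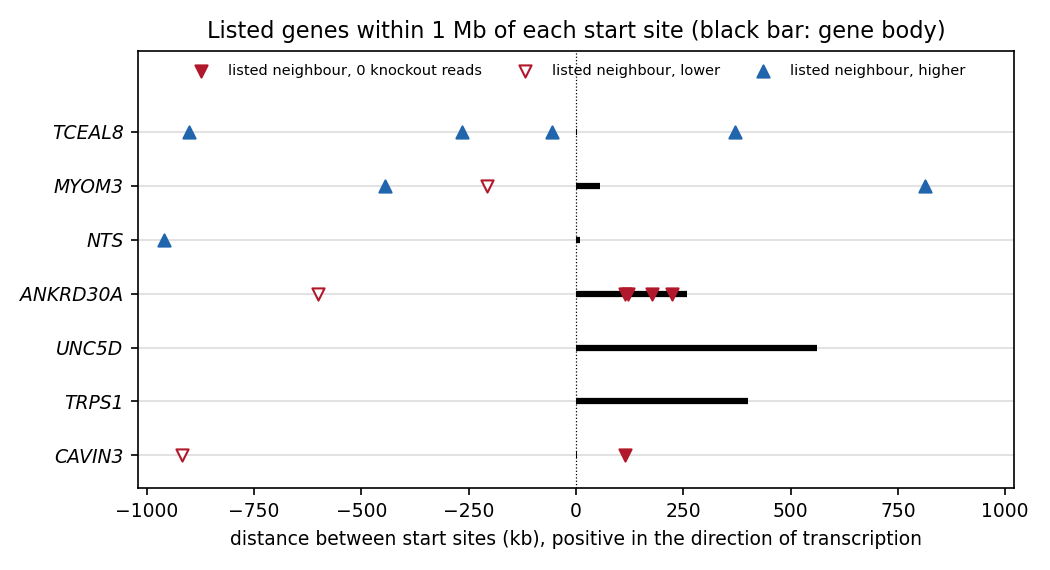
Listed genes within 1 Mb of the start site of each of the 7 genes, by distance in kb along the direction of transcription, with black bars for the gene bodies. Filled red triangles have 0 knockout reads, open red ones are lower and blue ones are higher in the 1 knockout library than in the 1 control library. The 4 inside the body of ANKRD30A are all at 0, and the 4 around TCEAL8 are all higher.

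Relatives and partners of the 7 gene products were then looked up in lists of 81 genes in all. Of these, 9 were in the table, 4 lower and 5 higher in the knockout, against 61.4% lower among listed protein-coding genes. Only NMUR2, a neuromedin U receptor on the neurotensin list of 9 genes, was at 0, with 5 control reads, where 10.3% of listed protein-coding genes were at 0. The 7 were chosen for being at 0, so nothing is read from a contrast with their relatives.

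For TRPS1, 3 of the 12 GATA factors and partners were in the table. GATA2, a zinc finger activator, was higher in the knockout, at 0.959 RPKM and 26 control reads against 4.10 RPKM and 100 knockout reads, with a 95% Clopper-Pearson interval of 1.46 to 2.78 for the log2 ratio. RUNX2, a transcription factor of bone formation, was lower, from 58 to 7 reads, with an interval of -4.28 to -1.77. GATA3, a regulator of epithelial and lymphoid genes, was lower as well, at 3.64 RPKM in the control and 1.74 RPKM in the knockout.

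For UNC5D, 3 of the 18 UNC5 receptors, netrins and FLRT genes were in the table. FLRT3, a membrane ligand of UNC5 receptors, had 132 control and 28 knockout reads (4.18 and 0.985 RPKM), with an interval of -2.73 to -1.49. The netrin gene NTN3 had 5 and 13 reads, a difference within counting error (interval -0.05 to 3.37), and the UNC5-like gene UNC5CL had 0 and 6. The list thus had 1 lower and 2 higher genes beside UNC5D.

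For ANKRD30A, 1 of 9 relatives was in the table, POTEF, with 2 control and 16 knockout reads, and members of that family are near copies whose reads may be shared. The lists of 11 caveolar genes for CAVIN3 and of 9 M-band and giant muscle proteins for MYOM3 had 0 genes in the table, so CAVIN3 was the only caveolar gene that could be followed. DES, the muscle intermediate filament gene, went the other way from MYOM3, with 0 control and 10 knockout reads. Of the 38 writers and readers of gene silencing looked for, JARID2, a subunit of a Polycomb complex, was in the table, lower at 167 control and 51 knockout reads (4.57 and 1.55 RPKM). JARID2 lies on chromosome 6 near other listed genes that were lower, such as DTNBP1 (49 control and 17 knockout reads) and MYLIP (67 and 19). The directions of all listed genes around JARID2 were not counted. Whether its change is particular to it or shared by that region was not tested.

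Sequence was the last feature examined. Promoter sequences from RefSeq (GRCh38.p14) could be matched for 3 of the 7 genes, TCEAL8, MYOM3 and NTS. They are shown as the 250 bases before the RefSeq start site, 5′ to 3′ on the strand of the gene, because their content of CpG, the dinucleotide that carries DNA methylation, differs between the 3, and capitals mark each CpG. The windows are chrX:103255156-103255405 (minus strand) for TCEAL8, chr1:24112136-24112385 (minus strand) for MYOM3 and chr12:85874045-85874294 (plus strand) for NTS.
TCEAL8: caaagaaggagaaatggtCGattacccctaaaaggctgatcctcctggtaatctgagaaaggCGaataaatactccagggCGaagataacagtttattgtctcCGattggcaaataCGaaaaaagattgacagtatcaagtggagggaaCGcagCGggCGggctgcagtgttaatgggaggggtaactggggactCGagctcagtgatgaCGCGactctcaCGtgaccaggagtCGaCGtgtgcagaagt
MYOM3: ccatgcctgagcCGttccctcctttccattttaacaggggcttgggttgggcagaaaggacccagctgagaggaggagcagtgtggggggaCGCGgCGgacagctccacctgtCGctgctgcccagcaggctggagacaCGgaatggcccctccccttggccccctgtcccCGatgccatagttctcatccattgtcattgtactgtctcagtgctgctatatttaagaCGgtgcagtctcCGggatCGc
NTS: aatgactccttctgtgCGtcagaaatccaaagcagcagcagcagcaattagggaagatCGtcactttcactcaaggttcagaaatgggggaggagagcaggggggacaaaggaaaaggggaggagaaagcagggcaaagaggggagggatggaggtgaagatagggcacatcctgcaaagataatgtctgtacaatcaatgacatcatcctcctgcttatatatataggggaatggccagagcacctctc

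The median promoter among 22199 RefSeq promoters of protein-coding genes holds 16 CpG in this window. The TCEAL8 window holds 14 CpG at an observed over expected ratio of 0.967, at percentile 85.8 of these promoters, whose median ratio is 0.711, but over the 300-base window, which adds 50 bases after the start, its ratio was 0.774 (percentile 54.9). The MYOM3 window holds 10 CpG at a ratio of 0.445 (percentile 30.9). The NTS window holds 2 CpG at a ratio of 0.141 (percentile 9.69). The GC content was 49.6% for TCEAL8, 60.0% for MYOM3 and 49.2% for NTS, where the median promoter has 62.0%. All 3 held fewer CpG than the median promoter, with the fewest in NTS. Methylation was not measured here.

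The study describes ac4C on a repeat of cytidines, each followed by a pair of other bases and printed with dots between the units. A strict form of this repeat, without gaps, was counted in the longest annotated protein-coding transcript of each gene. Sites with gaps between the units are missed by it, and a search that allows gaps was not run. The letters searched were CNNCNNCNNCNN, on the transcript strand only, with overlapping matches counted. Of 795 listed protein-coding genes, 99.1% hold at least 1 match, with a median of 8.93 matches per kb and an interquartile range from 4.37 to 15.7. TCEAL8 and NTS hold 0 matches in transcripts of 1222 and 1237 bases, and 0 in each of their other annotated coding transcripts. They are 2 of the 7 listed protein-coding genes with 0 matches in the longest transcript. Both transcripts are short, and of the 66 listed genes with a transcript of at most 1237 bases, 4 hold 0 matches, these 2 among them.

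TRPS1 holds 2.10 matches per kb, ANKRD30A 2.52 and UNC5D 3.35, so that 5 of the 7 lie under the lower quartile. MYOM3, at 9.30 per kb, lies near the median, and CAVIN3, at 20.4 per kb, lies at percentile 86.2. The count moves with the share of cytidine, which was 16.2% in NTS, 18.0% in TCEAL8 and 33.0% in CAVIN3 against a median of 25.1%. The median over the 7 was 2.52 per kb, beside 5.78 over 74 other protein-coding genes at 0 in the knockout, 8.99 over all lower ones and 8.81 over the higher ones. This measure was chosen after the values of the 7 were known. A match is a stretch of letters and no measured ac4C site, and 0 matches says only that these letters are not in the annotated transcript.

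**Figure D4:**
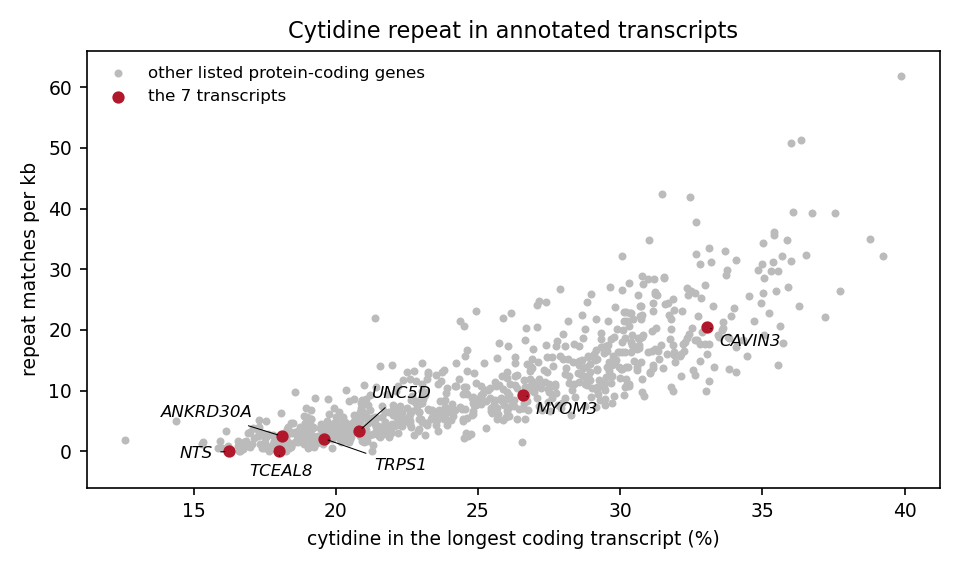
Matches to the gapless cytidine repeat per kb against the percentage of cytidine in the longest annotated coding transcript. Each of 795 listed protein-coding genes is 1 point. NTS and TCEAL8 sit at 0 matches, ANKRD30A, TRPS1 and UNC5D between 2.10 and 3.35 per kb, MYOM3 at 9.30 and CAVIN3 at 20.4, along the same rise with cytidine content as the other genes.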

How the data were processed

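Total RNA was extracted from control A549 cells and from 1 NAT10 knockout clone and made into libraries with a SMARTer kit, per the labels. The authors deposited RPKM per gene and library, limited to genes past their thresholds, on the hg38 build named in the submitters' processing notes. Aligner, annotation, counter and strand handling are not given in the sources used here. The deposited table also holds the authors' own fold changes, p-values and direction, which were not used. The smallest log2 ratio of RPKM was 0.99 in size.

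RPKM times exon length (GENCODE release 29) gave whole reads, within 0.01 of a read, in both libraries for 1342 of 1408 genes with a length (95.3%), and these set the effective library sizes. They rest on a limited list and are no total read counts. Read recovery was tested on simulated data. Groups came from the sample titles. With 1 library per group no test was made, and intervals cover counting error only, since reads carry no molecular identifiers. A pseudocount of 1 RPKM was used for log2 values. Folds against 0 used a floor of 3 reads. Python 3.11.15, pandas 2.3.3 and SciPy 1.17.1 were used.

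The 7 transcripts and all gene lists were chosen with earlier results of these data known. Named genes were the 7, genes at 0 in the knockout on either side of the lowest of them or with as many reads, the 5 genes most like them, the 5 protein-coding genes at 0 in the control with most knockout reads, and every listed gene of the lists and of the 1 Mb windows. HAS2, DLC1, DTNBP1 and MYLIP were named after their values were seen. So were UGT1A9 and TOX3, next below the 7 in control reads among protein-coding genes at 0 in the knockout. Alternatives covered the pseudocount, low values, the bound on 0 reads, gene type, read minimum and promoter window.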

Additional observations from a re-analysis of the deposited data

How the results depend on the processing

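With 1 library per group, no replicate could be left out. No paired analysis was possible because each group had 1 library. The median log2(RPKM + 1) difference of the 7 transcripts, -1.38, became -4.09 when 0.1 RPKM was added and -0.40 when 5 RPKM was added, and it was -2.84 over the 3 with a mean RPKM of at least 1. Over both pseudocounts, each of the 7 differences moved by more than its counting error in 14 of 14 cases, and 0 changed sign. The median fold bound was 14.7 with a floor of 3 reads and 11.5 at the upper limit of the exact 95% Clopper-Pearson interval. The 182 listed genes at 0 in the knockout became 82 among protein-coding genes only, 28 with at least 10 control reads, 11 with more than 20, and 350 with at most 2 knockout reads allowed. The first 3 keep a part of the genes, and the last admits more. The median CpG ratio of the 3 promoters was 0.445, and 0.482 over 300 bases, but that of TCEAL8 fell from 0.967 (percentile 85.8) to 0.774 (percentile 54.9). The cytidine repeat of the 7, counted in the transcript with the most matches, which was chosen after seeing the data, had a median of 2.73 per kb in place of 2.52. Scaling to library totals was not run, since totals were not worked out from RPKM. Depth limits all of this: a loss beyond about the bounds given could not be resolved.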

Other observations

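The reverse pattern, a control level of 0 with reads in the knockout, was found in 32 protein-coding genes. The 5 with the most knockout reads were HTRA3, a secreted serine protease gene, with 20 reads (1.10 RPKM), KIF5A, a neuronal kinesin gene, with 14 (0.408 RPKM), NCMAP with 12 (0.532 RPKM), DES with 10 (0.741 RPKM) and PTGS1, the gene for cyclooxygenase-1, with 9 (0.284 RPKM). Against a floor of 3 control reads, and with the knockout count taken without error, HTRA3 was at least 7.40-fold higher in the knockout and PTGS1 at least 3.33-fold. None of the 32 reached the 42 reads of CAVIN3, the lowest of the 7 lost transcripts. The 7 were chosen for clear control expression and the 32 were not chosen by reads, so nothing is read from this difference. NCMAP starts 443.9 kb from MYOM3, so a transcript at 0 in the knockout and one at 0 in the control lay in the same 1 Mb window.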
